A study of Homo sapiens with 4 samples.

Results

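The DNA repair genes described here are 57 genes of 7 repair pathways, followed through the STAT5A binding sites of a myeloma cell line. They were chosen by name for their function and not by any measured value, though with earlier results of these data known. A peak was taken as theirs when the authors' annotation gave it their gene symbol. They make up 57 of the 19974 protein-coding genes on chromosomes 1 to 22 and X. The peak lists named 47 of the 57 with 60 peaks in YTHDF2 knockdown cells and 48 of the 57 with 95 peaks in wild-type cells.

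Chromatin immunoprecipitation sequencing (ChIP-seq) maps where a protein sits on the genome from the DNA that is pulled down with it. The 4 libraries came from ARP1, a multiple myeloma line labelled as bone marrow. YTHDF2 knockdown cells gave 1 library pulled down with an antibody to STAT5A and 1 input library, and wild-type cells gave the same pair. YTHDF2 is a reader of N6-methyladenosine that shortens the life of the messenger RNAs it binds. No treatment was labelled, and the sources used here give neither the knockdown construct nor the number of clones or cultures. The knockdown list held 31227 peaks and the wild-type list 55269, 1 list per condition, so the condition and its library cannot be told apart and no test between conditions was possible. Read depth is unknown. Promoter peaks were found in both lists at 7 of 10 plasma cell genes, among them XBP1, IRF4, PRDM1 and SDC1, and TNFRSF17, JCHAIN and SLAMF7 had one in neither.

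STAT5A is a transcription factor that is phosphorylated by JAK kinases after cytokine binding, dimerises and enters the nucleus, where the dimer recognises a short palindrome, TTCNNNGAA. DNA repair rests on several pathways. Homologous recombination and end joining mend double-strand breaks, the Fanconi anaemia proteins open cross-links between strands, and excision and mismatch repair replace damaged or mispaired bases. Many repair genes have short promoters without a TATA box that face a neighbouring gene across a small gap. B-lineage cells also use repair enzymes to cut and rejoin their antibody genes, UNG and the end joining proteins among them.

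The promoter windows of the repair genes with the highest peaks held the CCAAT box, which the factor NF-Y recognises, more often than the STAT palindrome. The same order holds over all promoter windows, 34.6% with CCAAT and 7.66% with the palindrome. At a fold enrichment of at least 20, the GC box GGGCGG stood in more member windows than CCAAT, 7 of 8 in knockdown and 14 of 15 in wild type. The CCAAT box nearest to the wild-type summit is shown for 9 genes. In each, the summits of both lists fell within 50 bp of the centre of that box. Other members that met this rule are not shown. Among them, FANCA and PMS2 had higher folds than some of the 9, and MRE11 and FANCM had lower folds than all of the 9. Each sequence is 30 bases of the gene's own strand from RefSeq, build GRCh38.p14, with CCAAT or its reverse complement ATTGG in capitals.
UNG, chr12:109098015-109098044, plus strand: gggcccatggcgCCAATccgcgcgccgcag
XRCC3, chr14:103715650-103715679, minus strand: tcgctgccctctCCAATccgtgtaagggca
DCLRE1C, chr10:14954099-14954128, minus strand: gcgttcggccgcCCAATggcgaggcagcgc
CHEK2, chr22:28741873-28741902, minus strand: ctgctgctcctcATTGGtccggcggcaggg
BRIP1, chr17:61863560-61863589, minus strand: ccttggcgggtgATTGGtcgagctcgctgg
ERCC2, chr19:45370674-45370703, minus strand: cgcagtatcccgATTGGctctgccctagcg
ERCC8, chr5:60945101-60945130, minus strand: acggcgctcaccATTGGccggatatatcac
FANCF, chr11:22625858-22625887, minus strand: ttcgcggatgttCCAATcagtacgcagaga
OGG1, chr3:9749868-9749897, plus strand: ccctgatttctcATTGGcgcctcctacctc

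The STAT palindrome occurred in the promoter windows of 5 members, and 4 of its copies are shown with the 9 letters in capitals. The copy at DCLRE1C begins 4 bases into the transcript, counting the start as 1, and lies under the highest peaks of the 5 genes, 39 bp from the knockdown summit and 28 bp from the wild-type summit. It overlaps a match to the ETS core CCGGAAG. The copy at PARP2 lies under a wild-type peak that has no knockdown counterpart.
DCLRE1C, chr10:14954074-14954103, minus strand: agcgcgcggcTTCCCGGAAgtggcggcgcg
PARP2, chr14:20343471-20343500, plus strand: ttatggtgatTTCCCAGAAcacatagcgac
FANCM, chr14:45135832-45135861, plus strand: ctgtgaaggtTTCCGGGAAgccagccaatc
MLH3, chr14:75051547-75051576, minus strand: taggtaccggTTCACTGAAccctgggatgc

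The window of ATR, whose peak was among the 2 highest of the members in each list, held neither CCAAT nor the STAT palindrome. The 150 bases before its start, which include both summits, are shown for comparison.
ATR, chr3:142578734-142578883, minus strand: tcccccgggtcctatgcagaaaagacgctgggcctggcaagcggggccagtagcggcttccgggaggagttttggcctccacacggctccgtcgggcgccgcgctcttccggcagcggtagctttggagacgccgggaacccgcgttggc

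Most repair genes carried a STAT5A peak at their promoter in both conditions. A promoter peak here is a peak credited to the gene by the authors whose edge lies within 1 kb of the gene's start. Of the 57 genes, 46 (80.7%) had one in the knockdown list, against 56.1% of all protein-coding genes, and 46 (80.7%) in the wild-type list, against 64.7%. Both lists held 43 (75.4%), against 53.6%. The knockdown list alone held 3 genes, BARD1, BRCA2 and RAD51C (5.26%, against 2.42%). The wild-type list alone held 3 others, LIG1, PARP2 and XRCC1 (5.26%, against 11.0%). Neither list held FANCB, FANCF, LIG3, MSH3, XRCC5, ERCC6, PRKDC and XRCC4, 8 genes (14.0%, against 32.9%). The share of members in both lists was thus above the share of all protein-coding genes, and the share in wild type only was below it. The counts depend on low peaks. With a fold of at least 5 required, 30 members had a promoter peak in the knockdown list and 41 in the wild-type list. Of the members, 1 was then in knockdown alone and 12 in wild type alone. No share of all protein-coding genes is given at this fold, so these counts have no background beside them. The median fold of all promoter peaks was 4.83 in knockdown and 8.61 in wild type, so the limit falls unequally on the 2 lists.

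Much of the remainder turned on which of 2 neighbouring genes a peak was credited to. When any peak within 1 kb of a RefSeq start was counted, whichever gene it named, 54 of the 57 members (94.7%) had one in the knockdown list, against 63.6% of protein-coding genes. In the wild-type list 54 (94.7%) had one, against 73.4%, and 53 (93.0%) had one in both, against 62.4%. RAD51C was then the only member in the knockdown list alone (1.75%, against 1.12%) and PARP2 the only one in the wild-type list alone (1.75%, against 11.0%). XRCC1 and XRCC5 had no peak there in either list (3.51%, against 25.4%). Opposite-strand neighbours were counted apart from the crediting, and at any RefSeq start of a gene. Of the 56 members with a known strand, 17 (30.4%) had the start of an opposite-strand protein-coding gene within 1 kb, against 13.1% of 18255 protein-coding genes. LIG4 and ABHD13 start 43 bp apart, XRCC4 and TMEM167A 153 bp, FANCB and MOSPD2 352 bp, and ATM and NPAT 429 bp. Peaks at the starts of LIG4 and ATM were credited to those genes, and peaks at XRCC4 and FANCB to the neighbour. LIG3, FANCF and MSH3, whose peaks at the start were credited to another gene in both lists, were not among the 17. At BRCA1, MRE11 and RAD52 the start so counted need not be the one under the peak described here.

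**Figure D1:**
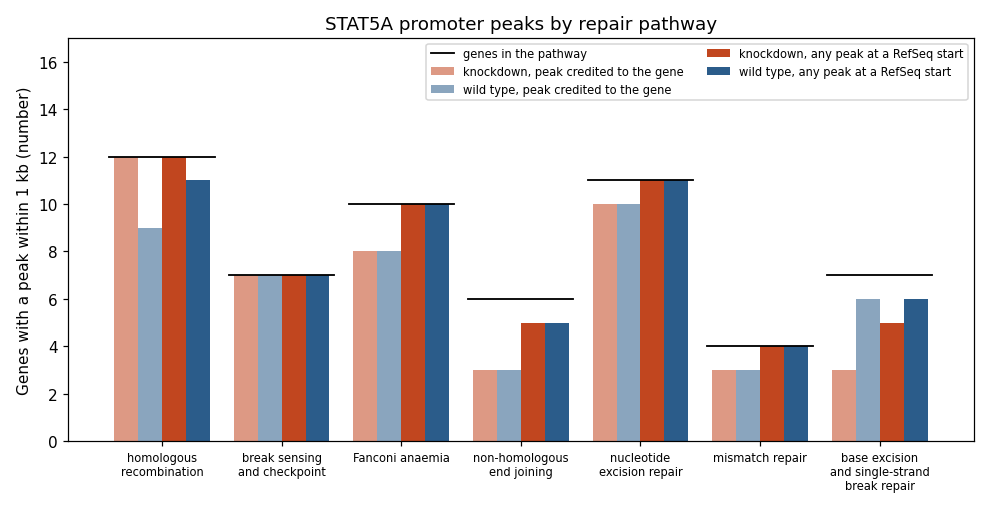
Number of genes per repair pathway with a STAT5A peak within 1 kb of a start, for peaks credited to the gene (pale bars) and for any peak at a RefSeq start (dark bars), in YTHDF2 knockdown and in wild-type cells, with black lines at the number of genes in the pathway. By the second count every gene of 4 pathways had a peak in both lists, and non-homologous end joining reached 5 of 6 genes in each.

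The height of the peaks at repair gene starts spread over a wide range. The fold enrichment is the authors' own linear ratio for each peak, and what it is taken over is not stated, so the 2 values of a gene describe its peaks and do not measure a change. Among the 54 members with a peak at the start in the knockdown list, the highest peak of each had a median fold of 6.18 (2.38 to 146), beside 5.30 for 12603 protein-coding genes. In the wild-type list the median of 54 members was 13.9 (3.36 to 459), beside 11.3 for 14660 genes. Peaks with a fold of at least 50 stood at 6 members in the knockdown list (11.1%, against 3.56% of genes with a peak) and at 10 members in the wild-type list (18.5%, against 8.5%). The 6 in knockdown were ATR, UNG, XRCC3, LIG1, CHEK2 and DCLRE1C, and the wild-type list added BRIP1, PRKDC, ERCC1 and FANCB. At the starts used, the 6 members in knockdown were thus all among the 10 in wild type.

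Of the 53 members with a peak at the start in both lists, 4 (7.55%) had a knockdown fold that was not below the wild-type fold, FANCF, FANCM, MLH3 and RAD51B, against 2.71% of 12371 protein-coding genes. The summits of the paired peaks lay close together. Their median distance was 21 bp, and 45 of 53 (84.9%) lay within 100 bp of each other, against 56 bp and 63.9% for all protein-coding genes.

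**Figure D2:**
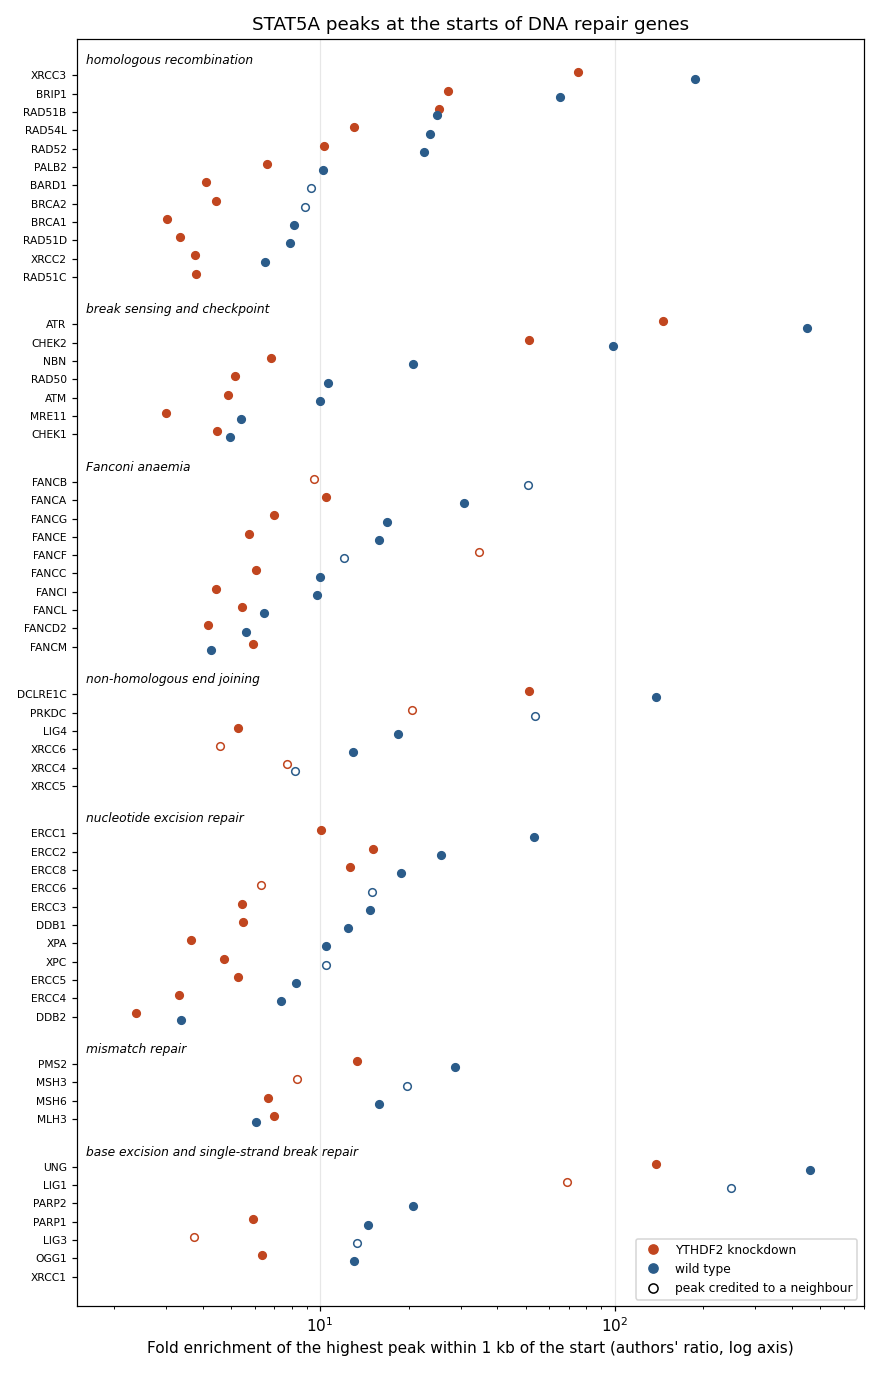
Fold enrichment (the authors' ratio, log axis) of the highest STAT5A peak within 1 kb of the start of each repair gene in YTHDF2 knockdown and wild-type cells, 1 list each, by pathway. Open circles are peaks credited to a neighbouring gene, and a gene without a circle had no such peak. The circles of UNG (138 in knockdown, 459 in wild type) and ATR (146 in knockdown, 450 in wild type) lie farthest to the right, and FANCF (34.6 in knockdown, 12.1 in wild type) has its knockdown circle to the right of its wild-type circle.

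Homologous recombination copies the intact sister chromatid. All 12 of its members had a credited promoter peak in the knockdown list and 9 in the wild-type list, and by any peak at the start 12 in knockdown and 11 in wild type. XRCC3, a paralogue of the recombinase that helps its filament form, had the highest fold of the pathway, 75.3 in knockdown cells (chromosome 14, 103715078 to 103716665) and 188 in wild-type cells (103714880 to 103716864). BRIP1, a helicase that binds BRCA1, had folds of 27.1 in knockdown and 65.2 in wild type. RAD51B, another paralogue, had 25.3 in knockdown and 25.0 in wild type (chromosome 14, 67819277 to 67820158 in the knockdown list, 67819064 to 67819907 in the wild-type list), so its folds were level across the lists. RAD54L, a motor protein of strand exchange, had 13.0 in knockdown and 23.6 in wild type.

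The BRCA genes themselves carried peaks below the middle of the knockdown list and near the middle of the wild-type list. The peaks at the start of BRCA1 exceeded 5.24% of the promoter peaks in knockdown and 46.9% in wild type. Those of BRCA2 exceeded 39.9% in knockdown and 52.2% in wild type. BRCA2, which loads the recombinase on single-stranded DNA, had a fold of 4.43 in knockdown (chromosome 13, 32315409 to 32315814) and 8.92 in wild type (32315258 to 32315907). The wild-type peak spans the same start but was credited to ZAR1L, which starts 145 bp away on the other strand. BARD1, the partner of BRCA1, had 4.09 in knockdown, and its wild-type peak of 9.30 overlapped it but was credited to the neighbouring LOC101928103. BRCA2 and BARD1 thus had a peak at the start in both lists, though not under their own name in wild type. RAD51C, a further paralogue, had no wild-type peak at the start and a knockdown peak of fold 3.79 (chromosome 17, 58692479 to 58692850, the authors' q-value 6e-07). That fold exceeded 22.5% of the promoter peaks of the knockdown list.

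BRCA1, which directs breaks into this pathway, had promoter peaks in both lists that did not overlap, and it was singled out after its values were seen. The knockdown peak (chromosome 17, 43125051 to 43125337) had a fold of 3.03 and lay within the gene just after its start, and the wild-type peak (43126249 to 43127221) had a fold of 8.17 and its near edge 885 bp before it. PALB2, the bridge between BRCA1 and BRCA2, had 6.62 in knockdown and 10.2 in wild type. RAD52, an annealing protein, had 10.3 in knockdown and 22.5 in wild type. Of the other paralogues, XRCC2 had 3.77 in knockdown and 6.49 in wild type, and RAD51D had 3.34 in knockdown and 7.93 in wild type. In this pathway 2 genes had folds of at least 50 in wild type, and the median was 5.53 in knockdown and 10.2 in wild type.

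The proteins that sense breaks and stop the cell cycle had a promoter peak at all 7 genes in both lists, each credited to the gene itself. ATR, the kinase activated by exposed single strands, had a fold of 146 in knockdown (chromosome 3, 142578391 to 142579095) and 450 in wild type (142578368 to 142579102). These exceeded 99.6% of the promoter peaks in each list. CHEK2, a checkpoint kinase downstream of ATM, had 51.2 in knockdown and 98.6 in wild type. The kinases on the same signalling arms had lower peaks. ATM, activated by double-strand breaks, had 4.88 in knockdown and 9.97 in wild type, and CHEK1, the kinase below ATR, had 4.48 in knockdown and 4.93 in wild type. The MRE11, RAD50 and NBN proteins form the complex that first binds a break. NBN had 6.81 in knockdown and 20.7 in wild type, RAD50 5.14 in knockdown and 10.6 in wild type, and MRE11 3.01 in knockdown and 5.39 in wild type, so the parts of this complex differed in peak height within each list.

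The Fanconi anaemia genes had a peak at the start in all 10 cases in both lists, 8 of them credited to the gene in each. The core complex, which attaches ubiquitin to FANCD2 and FANCI, includes FANCA, FANCB, FANCC, FANCE, FANCF, FANCG and the ligase FANCL. FANCA had a fold of 10.5 in knockdown and 30.7 in wild type, FANCG 6.97 in knockdown and 16.9 in wild type, and FANCE 5.76 in knockdown and 15.9 in wild type. FANCB had 9.55 in knockdown and 50.8 in wild type under peaks credited to MOSPD2, which starts 352 bp away. FANCC had 6.05 in knockdown and 9.97 in wild type, and FANCL 5.43 in knockdown and 6.45 in wild type.

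FANCF had the higher fold in knockdown. Its knockdown fold was 34.6 (chromosome 11, 22625238 to 22626093) and its wild-type fold 12.1 (22625149 to 22626105), and both peaks were credited to GAS2. The knockdown peak exceeded 96.0% of the promoter peaks of its list and the wild-type peak 70.5% of its own. FANCM, a translocase that anchors the core complex, had 5.91 in knockdown and 4.25 in wild type. Of the targets, FANCD2 had 4.16 in knockdown and 5.62 in wild type, and FANCI had 4.43 in knockdown and 9.73 in wild type. All members of the pathway other than FANCF thus had a knockdown fold of 10.5 or less.

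Non-homologous end joining ligates broken ends directly. Of its 6 genes, 3 had a credited promoter peak and 5 a peak at the start in each list. DCLRE1C, the Artemis nuclease that opens hairpins at broken ends, had a fold of 51.1 in knockdown (chromosome 10, 14953715 to 14954458) and 138 in wild type (14953658 to 14954416). LIG4, the ligase of the last step, had 5.25 in knockdown and 18.4 in wild type. Its partner XRCC4 had 7.75 in knockdown and 8.22 in wild type under peaks credited to TMEM167A. PRKDC, the catalytic subunit of the DNA-dependent kinase, had 20.5 in knockdown and 53.6 in wild type under peaks credited to MCM4, a replication helicase gene beside it. The genes of the Ku heterodimer, which caps broken ends, differed. At XRCC6 the knockdown list held 2 peaks, 1 of fold 4.58 credited to DESI1 and 1 of 3.19 credited to XRCC6, and the wild-type list a single peak of 12.9 over the same stretch. XRCC5 was named by no peak in either list.

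Nucleotide excision repair removes bulky damage such as ultraviolet photoproducts. Of its 11 genes, 10 had a credited promoter peak and 11 a peak at the start in each list. ERCC1, which forms the nuclease of one incision with ERCC4, had a fold of 10.1 in knockdown (chromosome 19, 45423451 to 45424001) and 53.3 in wild type (45423444 to 45423963). ERCC4 itself had 3.32 in knockdown and 7.38 in wild type. Of the helicases of transcription factor TFIIH, ERCC2 had 15.1 in knockdown and 25.8 in wild type, and ERCC3 had 5.45 in knockdown and 14.8 in wild type. In transcription-coupled repair, ERCC8 had 12.6 in knockdown and 18.9 in wild type, and ERCC6 had 6.31 in knockdown and 15.0 in wild type under peaks credited to a gene without a symbol.

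The damage sensors differed in peak height. DDB1, the adaptor of the ultraviolet damage complex, had 5.49 in knockdown and 12.4 in wild type, at the middle of the pathway. Its partner DDB2 had the lowest folds of all members with peaks, 2.38 in knockdown (chromosome 11, 47214432 to 47214939) and 3.36 in wild type (47213108 to 47213469). The pair at DDB2 did not overlap, and the wild-type edge lay 985 bp from the RefSeq start. XPC, which finds distorted helices, had 4.73 in knockdown and 10.5 in wild type, the second credited to LSM3, while the wild-type promoter peak credited to XPC lay at an internal start with a fold of 4.16. XPA had 3.65 in knockdown and 10.5 in wild type, and the nuclease ERCC5 5.26 in knockdown and 8.31 in wild type. The median of the pathway was 5.45 in knockdown and 12.4 in wild type.

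Mismatch repair corrects replication errors. All 4 of its members here had a peak at the start in both lists, 3 of them credited to the gene. PMS2, the nuclease subunit, had a fold of 13.3 in knockdown and 28.8 in wild type. PMS2 has pseudogene copies, and the sources used here do not say how reads matching several places were handled, so its values are uncertain. MSH6, which recognises single mispairs, had 6.67 in knockdown and 15.8 in wild type. MSH3, which recognises larger loops, had no promoter peak credited to it in either list. MLH3, used mainly in meiosis, had 6.96 in knockdown and 6.04 in wild type. Its summits, 227 bp after the start in knockdown and 203 bp in wild type, lay away from the STAT palindrome printed above.

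Base excision and single-strand break repair held the highest wild-type peak of all members, at UNG, and had 3 of 7 genes with a credited promoter peak in knockdown and 6 of 7 in wild type. By any peak at the start the counts were 5 of 7 in knockdown and 6 of 7 in wild type. UNG, the glycosylase that removes uracil and acts in antibody class switching, had a fold of 138 in knockdown (chromosome 12, 109097547 to 109098516) and 459 in wild type (109097206 to 109098586). The summits lay 140 bp before the start in knockdown and 141 bp in wild type, both within 3 bp of the centre of the CCAAT box shown above. OGG1, the glycosylase for oxidised guanine, had 6.33 in knockdown and 13.0 in wild type. LIG1, the replicative ligase, had 68.7 in knockdown and 249 in wild type at its RefSeq start, both credited to ZSWIM9. The wild-type promoter peaks that bear the name of LIG1 were others, at later starts inside the gene, with folds of 3.38 and 4.47. LIG3 had 3.74 in knockdown and 13.3 in wild type under peaks credited to CCT6B.

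The strand-break sensors PARP1 and PARP2 differed in which lists named them. PARP1 had a fold of 5.91 in knockdown and 14.6 in wild type. PARP2 had a wild-type peak of fold 20.7 (chromosome 14, 20342820 to 20343705) that exceeded 89.5% of the wild-type promoter peaks, and no knockdown peak lay within 1 kb of its start. That wild-type peak also covers RPPH1, the RNA gene of ribonuclease P (20343071 to 20343411), and its summit at 20343261 lies inside RPPH1. The STAT palindrome lies between the 2 genes, 224 bp from the summit. RPPH1 was named after its position was seen. XRCC1, the scaffold of single-strand break repair, had no peak at its RefSeq start in either list, and its 2 wild-type promoter peaks, with folds of 5.77 and 5.83, lay at an upstream start of the authors' annotation (chromosome 19, 43592026 to 43593307).

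Repair gene peaks were mostly promoter peaks, and a smaller share of the peaks elsewhere overlapped the other list. Promoter peaks made up 51 of 60 member peaks in knockdown (85.0%, against 49.9% of all peaks) and 59 of 95 in wild type (62.1%, against 38.9%). Of the member promoter peaks, 46 of 51 in knockdown shared at least 1 bp with a wild-type peak (90.2%, 95% Clopper-Pearson interval 78.6 to 96.7%, against 93.7% of all promoter peaks). In wild type 43 of 59 overlapped a knockdown peak (72.9%, 59.7 to 83.6%, against 64.0%). The intervals cover counting error only, and both include the share of all promoter peaks.

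Beyond 1 kb the lists had less in common. The knockdown list held 9 such peaks at 8 members (14.0%, against 27.7% of protein-coding genes), and the wild-type list 36 at 22 members (38.6%, against 41.2%). Of these, 4 of 9 in knockdown overlapped the other list (44.4%, 13.7 to 78.8%, against 60.7%) and 4 of 36 in wild type (11.1%, 3.11 to 26.1%, against 25.4%). The wild-type share depends on the length of the list: with only as many wild-type peaks as the knockdown list holds, taken by q-value, it was 4 of 16 (25.0%, 7.27 to 52.4%, against 41.8%). The 4 shared places were a distal site before PARP1 with folds of 7.52 in knockdown and 8.47 in wild type, a site before MSH6 with 3.33 in knockdown and 11.6 in wild type, a distal site beyond XRCC6 with 3.94 in knockdown and 4.88 in wild type, and an intron of ERCC1 with 3.24 in knockdown and 4.90 in wild type. The knockdown list held 5 intron and 4 distal intergenic peaks, and the wild-type list 16 intron and 11 distal intergenic peaks among its 36. Their folds ran from 3.24 to 7.52 in knockdown and from 3.13 to 11.6 in wild type, far below the highest promoter peaks.

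**Figure D3:**
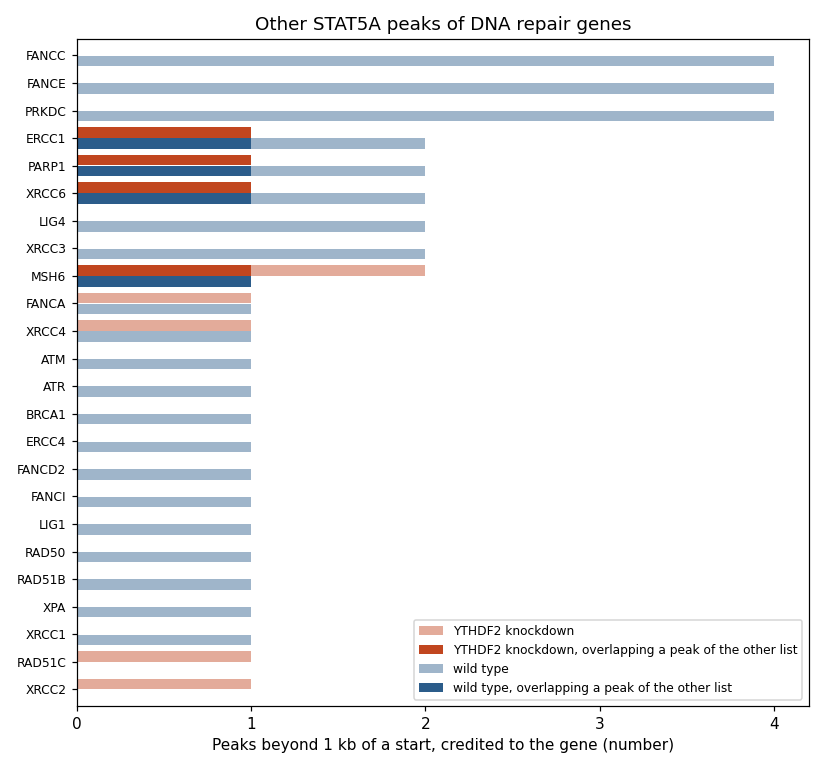
Number of STAT5A peaks beyond 1 kb of a start that the authors credited to each repair gene, in YTHDF2 knockdown (upper bar of each gene) and wild-type cells (lower bar), with the peaks that overlap a peak of the other list in the darker shade. FANCC, FANCE and PRKDC have 4 wild-type and no knockdown peaks, and MSH6 is the only gene with 2 in knockdown.

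A credit to a repair gene did not always mean a place inside it. The summit lay inside the credited gene for 4 of 9 such peaks in knockdown and 17 of 36 in wild type, inside another protein-coding gene for 1 in knockdown and 5 in wild type, and in no protein-coding gene for 4 in knockdown and 14 in wild type. FANCE, FANCC and PRKDC had the most wild-type peaks of this kind, 4 each, and none in knockdown. All 4 at FANCE lay within PPARD, the gene before it, with folds of 3.40 to 5.10. At FANCC 1 lay in an intron with a fold of 7.67 and 3 before the gene with folds of 4.11 to 11.2 (chromosome 9, 95337030 to 95350692). PRKDC had 2 in introns with folds of 4.00 and 5.08 and 2 beyond its end with folds of 9.19 and 11.6. MSH6 was the only member with 2 such peaks in knockdown.

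Peaks inside the gene spans gave a similar count. Over the 57 genes, peaks with a summit within the gene and more than 1 kb from any RefSeq start of that gene numbered 8 in knockdown, at 5 genes (8.77%, against 22.7% of protein-coding genes), and 38 in wild type, at 20 genes (35.1%, against 35.3%). The median span was 47.4 kb for the members and 24.2 kb for all protein-coding genes. Of these peaks 5 in each list overlapped the other, 62.5% in knockdown, against 67.7% over all protein-coding genes, and 13.2% in wild type, against 24.0%. ERCC1 had 4 in knockdown and 5 in wild type, and 4 in each list overlapped. XRCC3, whose span is 17.8 kb, had 6 in wild type with folds up to 5.90 and none in knockdown. RAD51B, whose span is 863 kb, had 1 in wild type and none in knockdown.

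The promoter windows of genes with high peaks held the CCAAT box more often than those of genes with low peaks, at repair genes as at others. RefSeq promoter windows of 250 bases before to 50 after the start were available for 53 of the 57 members, and both strands were searched for 6 motifs. For RAD51B the window stood at another start than the one under its peak. A motif in a window need not lie under the peak: the window held the summit for 27 members in knockdown and 28 in wild type, and at DDB2 and BRCA1 every box in the window lay outside the peaks of both lists. CCAAT stood in 23 of the 53 (43.4%), against 35.1% of 11967 windows of genes with a peak at the start and 34.6% of all 35116 windows. Members with the motif and a peak had a median fold of 10.3 in knockdown and 16.0 in wild type (22 genes), and members without it 5.44 in knockdown and 12.9 in wild type (28 genes). Of the members with a fold of at least 20, 6 of 8 held it in knockdown (75.0%, against 75.1% of genes at that fold) and 10 of 15 in wild type (66.7%, against 63.2%). Below that fold 16 of 42 held it in knockdown (38.1%, against 32.0%) and 12 of 35 in wild type (34.3%, against 28.5%). The shares of the members at both ranges of fold lay near those of other genes.

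**Figure D4:**
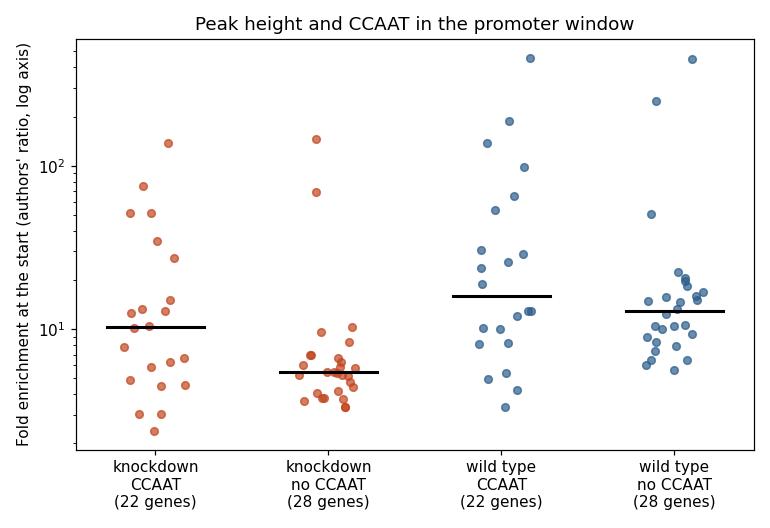
Fold enrichment (the authors' ratio, log axis) of the peak at the start for repair genes with and without CCAAT in the RefSeq promoter window, in YTHDF2 knockdown (left) and wild-type cells (right). Points are genes, shifted sideways at random, and black lines are medians, 10.3 with and 5.44 without CCAAT in knockdown and 16.0 with and 12.9 without in wild type. The ranges overlap in both lists.

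Where a window held both the summit and a CCAAT box, the 2 lay close together. The nearest box, not always the same one in both lists, lay within 50 bp of the summit in 16 of 19 windows in knockdown (84.2%, median 17 bp, against 73.2% of all such windows) and in 15 of 17 in wild type (88.2%, median 21 bp, against 74.9%). At CHEK2 the distance was 8 bp for the knockdown peak and 14 bp for the wild-type peak, and at BRIP1 9 bp (knockdown) and 20 bp (wild type). At DCLRE1C the knockdown summit was 11 bp and the wild-type summit 3 bp away, at XRCC3 the knockdown summit 19 bp and the wild-type summit 3 bp, and at ERCC2 both were 2 bp away. FANCF, with the higher fold in knockdown, had its knockdown summit 16 bp and its wild-type summit 25 bp away. ATR, LIG1 and FANCB, with high wild-type peaks, had no CCAAT in the window.

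The STAT palindrome TTCNNNGAA stood in 5 of the 53 windows (9.43%, against 5.25% of windows of genes with a peak and 7.66% of all windows), those of DCLRE1C, PARP2, MLH3, FANCD2 and FANCM. It lay within 50 bp of the summit in 2 of 3 windows that held both in knockdown (66.7%, against 38.5% of all such windows), those of DCLRE1C and FANCM, and in 1 of 3 in wild type (33.3%, against 32.5%), that of DCLRE1C. The GC box GGGCGG stood in 39 windows (73.6%, against 75.7% of those with a peak), among them 7 of 8 at a knockdown fold of at least 20 (87.5%, against 79.7%) and 14 of 15 at such a wild-type fold (93.3%, against 83.2%). The E2F core TTTCNCGC stood in 7 (13.2%, against 4.87%) and the ETS core CCGGAAG in 15 (28.3%, against 18.1%), but members with the ETS core had the lower median fold, 5.25 with and 6.67 without it in knockdown and 9.97 with and 15.8 without it in wild type. The cAMP response core TGACG stood in 21 (39.6%, against 33.7%). A match of letters is not a measured binding site, and no match says only that the letters are not in this window.

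A further 86 repair genes outside the 57, listed by pathway in the same way, gave similar shares. A credited promoter peak was held by 68 in knockdown (79.1%, against 56.1% of protein-coding genes) and 66 in wild type (76.7%, against 64.7%). Any peak at the start was held by 79 in knockdown (91.9%, against 63.6%) and 83 in wild type (96.5%, against 73.4%). Their median fold at the start was 5.74 in knockdown and 12.3 in wild type. The 3 highest knockdown folds were those of RMI1, MAD2L2 and TDP1, and the 3 highest wild-type folds those of CENPX, MAD2L2 and RMI1. RMI1, a subunit that dissolves recombination intermediates, had 112 in knockdown and 254 in wild type under peaks credited to HNRNPK. MAD2L2, a subunit of a translesion polymerase, had 95.3 in knockdown and 397 in wild type. TDP1, which frees stalled topoisomerase I from DNA ends, had 71.7 in knockdown and 142 in wild type, and CENPX, which binds FANCM, had 67.9 in knockdown and 410 in wild type. Both lists held a peak at the start for 78 of the 86 (90.7%, against 62.4% of protein-coding genes). Most of these promoters, like most of all protein-coding genes, thus had a peak in both lists.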

How the data were processed

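Peak lists of STAT5A ChIP-seq in ARP1 cells were used, 1 for YTHDF2 knockdown and 1 for wild type. Per the submitters' processing notes, cutadapt, Trimmomatic, FastQC, Bowtie2 and MACS2 were used with hg38. The sources used here give no versions, settings or annotation tool. The fold enrichment is a linear ratio deposited by the authors. The q-value per peak is also the authors' own, deposited on a linear scale, with a maximum of 0.05. Whether a credited peak was a promoter peak was decided by the authors' deposited distance score, in bp from the peak edge to the start they used. All distances printed were computed from the peaks and the RefSeq starts. Neither reads nor input signal entered the work, and depth per library is unknown, so the lengths of the lists may differ by depth alone. Histone modifications and input RNA also appear in the submitters' text, but the labels for antibody (STAT5A) and molecule (genomic DNA) were followed.

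The rows of each member were taken by symbol, and matching by gene identifier gave the same rows. Peaks at a start were those within 1 kb of a start in RefSeq GRCh38.p14. Folds and summits were read at 1 start per gene, that with the highest wild-type peak. Where no wild-type peak was found, the highest knockdown peak set the start. The highest peak of each list within 1 kb of that start was taken. Starts of the RefSeq promoter table were tried first, and the gene's outer end after them. Counting steps were checked on simulated data. Tools were pandas 2.3.3, numpy 2.4.6, scipy 1.17.1 and matplotlib 3.10.9 under Python 3.11.15. The members, the other repair genes and the motifs were chosen with earlier results of these data known. Full values were planned for the 4 highest members of each pathway, for members with a promoter peak in 1 list or none and for the 5 with the most other peaks, and the remaining members follow in short. An item that this rule would name is not reported here. No test between conditions was made. Alternatives covered the q-value, the fold, list length, the promoter window, crediting and the definition of overlap.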

Additional observations from a re-analysis of the deposited data

How the results depend on the processing

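Of the 57 alternative values computed, 46 stayed within 1.5 times the value given above. Some of these could not move, because shortening the wild-type list leaves every count taken from the knockdown list by itself unchanged. With a fold of at least 5 in both lists, 30 members kept a credited promoter peak in knockdown, 1 was in the knockdown list alone and 12 in the wild-type list alone. The peaks beyond 1 kb then numbered 2 in knockdown and 19 in wild type, and 1 of the wild-type ones overlapped a knockdown peak. No share of all protein-coding genes is given at this fold. With only as many wild-type peaks as the knockdown list holds, taken by q-value, 6 members were in knockdown only and 16 wild-type peaks lay beyond 1 kb. With the summit within 1 kb, 5 members were in knockdown only. By any peak at a RefSeq start, 1 member was left to knockdown alone and 1 to wild type alone. The cause of these shifts was not tested beyond the construction of each alternative. No paired analysis was possible because each condition has 1 peak list. Depth is unknown and limits what the absence of a peak shows.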

Other observations

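Translesion synthesis and direct reversal of damage, which no member of the 57 represents, had 10 further repair genes, and 9 of them had a credited promoter peak in each list. All 10 had a peak at the start in both. MGMT, which removes alkyl groups from guanine, had a fold of 4.79 in knockdown and 16.4 in wild type at its start, and it carried more peaks beyond 1 kb than any of the 57 genes, 22 in knockdown and 39 in wild type. Of the 86 further repair genes, HELQ, a helicase, had a peak at the start in knockdown only (fold 3.73). FAAP20 (5.78), POLL (6.81), CDK7 (4.50), GTF2H3 (8.83) and MSH4 (4.84) had one in wild type only, and RAD51AP1 and RPA3 in neither. By the authors' crediting, however, FAAP20 and RPA3 had a promoter peak in both lists. All of these were picked for naming with their values in view.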
